A study of Mus musculus with 12 samples.

Results

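Some stretches of chromatin stay open in a macrophage whether or not it is activated. In 749 such autosomal regions, rank fell by 15 percentile points or more on average between 0 and 6 h of lipopolysaccharide (LPS), without overlap. Every library at 6 h stood below every library at 0 h in each of them. The assay was ATAC-seq, which reads open chromatin through the sites where the Tn5 transposase can cut and tag DNA. The 12 deposited peak lists hold 886143 peaks. Peaks that overlapped by at least 1 bp were chained into 115231 regions, of which 41745 on the autosomes were called in all 12 libraries. For each of these regions, the highest −log10 q-value in a library, a value the authors' peak caller gave each peak, was turned into a percentile among all peaks of that library. A region was kept when its highest percentile at 6 h lay below its lowest at 0 h and its mean fell by at least 15 points. The regions were thus chosen by their percentiles at 6 h and 0 h, and this contrast is given below as a description without a test.

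The libraries form 6 groups of 2. Bone marrow-derived macrophages of female C57BL/6 mice, knockout (KO) for the long noncoding RNA lincRNA-EPS or wild type (WT), were cultured with 20% L929 supplement for 9 days and then received LPS at 100 ng/ml for 0, 2 or 6 h. Each reaction used 50000 cells and a modified Nextera kit. Whether the 2 libraries of a group represent different mice or cultures is not stated in the labels. The p-values below therefore reflect spread among these libraries alone, and that spread may be technical. Peak names inside the lists of the 4 libraries labelled 2 h give 1 h, and the time called 2 h here may be 1 h.

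LPS is a component of the outer membrane of Gram-negative bacteria. It is sensed by Toll-like receptor 4, which activates NF-κB and, through interferon, STAT factors, and these bind enhancers and promoters of inflammatory genes. Macrophage enhancers are kept open by lineage factors such as PU.1, and activation is known both to open enhancers and to reduce the activity of others. lincRNA-EPS is known as a restraint on immune response genes in macrophages. No annotation of the mm9 build, in which the coordinates are given, was used here. The regions therefore carry positions and no gene names, and the macrophage label was not checked against marker genes.

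The peak lists were longer at later times, with 54771 to 67128 peaks at 0 h, 70387 to 77100 at 2 h and 78766 to 91610 at 6 h. A peak list that grows by adding weak peaks lifts the percentile of a peak that stays the same. Total read counts were not used here. The number of reads covering each summit and the local background around it were recovered from the deposited fold ratio and −log10 p, and the lowest background of a library, which moves with its depth, ran from 1.43 to 3.35 reads. In bulk libraries, fewer cells with an open site and less opening per cell cannot be told apart.

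The falling regions were 1.79% of the regions called in all 12 libraries. Under the mirrored rule, which asks for a rise of at least 15 points with all 6 h values above all 0 h values, 5895 regions (14.1%) rose. Without the 15-point limit, 6 h values lay below 0 h values without overlap in 1617 regions (3.87%), so that 868 regions fell by less than 15 points, and they lay above in 9009 (21.6%). When each library was ranked over the 41745 shared regions only, so that all 12 rankings have the same length, 3536 regions fell (8.47%) and 3773 rose (9.04%), and the falling share of the changed regions was 48.4%, against 11.3% in the ranks over whole lists. Such ranks have the same mean in every library, so falls and rises offset each other by construction. The split in them therefore does not tell longer lists from a net gain of accessibility, and the part of each in the excess of rising regions was not tested. Of the 749 regions, 733 (97.9%) also fell in the equal-length ranks. On the X chromosome, 9 of 1066 regions called in all 12 libraries met the same rule and were not included.

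At 6 h the median percentile of the falling regions was 48.2 and 39.8 in the KO libraries and 41.9 and 43.0 in the WT libraries, against 68.5 and 64.5 in KO and 69.5 and 69.0 in WT at 0 h. The 2 h libraries, at 66.7 and 67.3 in KO and 69.7 and 65.2 in WT, stood with those at 0 h. All 41745 regions had medians of 60.6 to 68.0 at 0 h, 69.4 to 72.2 at 2 h and 71.3 to 75.4 at 6 h. The falling regions thus began near the middle of the shared open regions and ended well below it in each of the 4 libraries at 6 h. Their median change was −23.35 points (quartiles −28.6 and −18.4), against +3.96 points over all 41745. The change was −20.9 points in KO (all regions, +5.76) and −25.1 points in WT (all regions, +2.36). Equal-length ranks gave a median change of −35.7 points, against −0.86 over all regions.

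**Figure D1:**
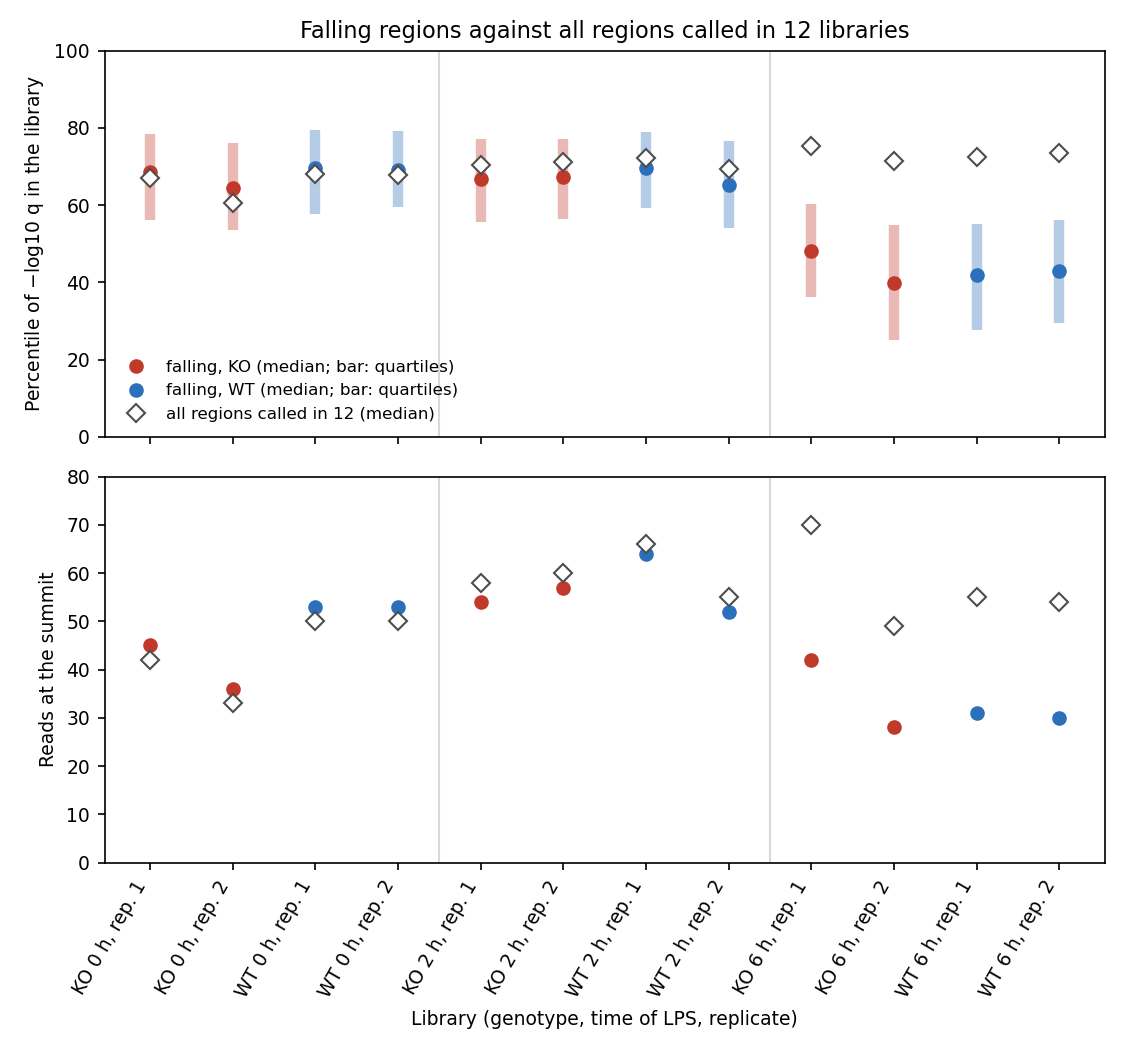
Each library is a column, with KO left of WT within 0, 2 and 6 h of LPS. The upper panel shows the percentile of −log10 q, with the median of the 749 falling regions as a filled circle, their quartiles as a bar and the median of all 41745 regions as an open diamond. The lower panel shows the median number of reads at the summit for the same sets. Circles and diamonds lie close together at 0 h and 2 h and apart in the 4 libraries at 6 h.

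The falls were mostly moderate. Between 15 and 20 points separated 6 h from 0 h in 257 regions, 20 to 30 points in 332, 30 to 40 points in 128, and 40 points or more in 32. The regions just inside the limit, chr5:102979983-102980808, chr1:184883720-184884245 and chr3:131713773-131714544, changed by −15.00, −15.02 and −15.04 points. Just outside it, chr4:59907832-59908546, chr7:105482356-105483361 and chr1:151800976-151801591 changed by −14.98, −14.97 and −14.97 points. The limit thus cuts through a continuous range, as the plot of 6 h against 0 h shows.

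**Figure D2:**
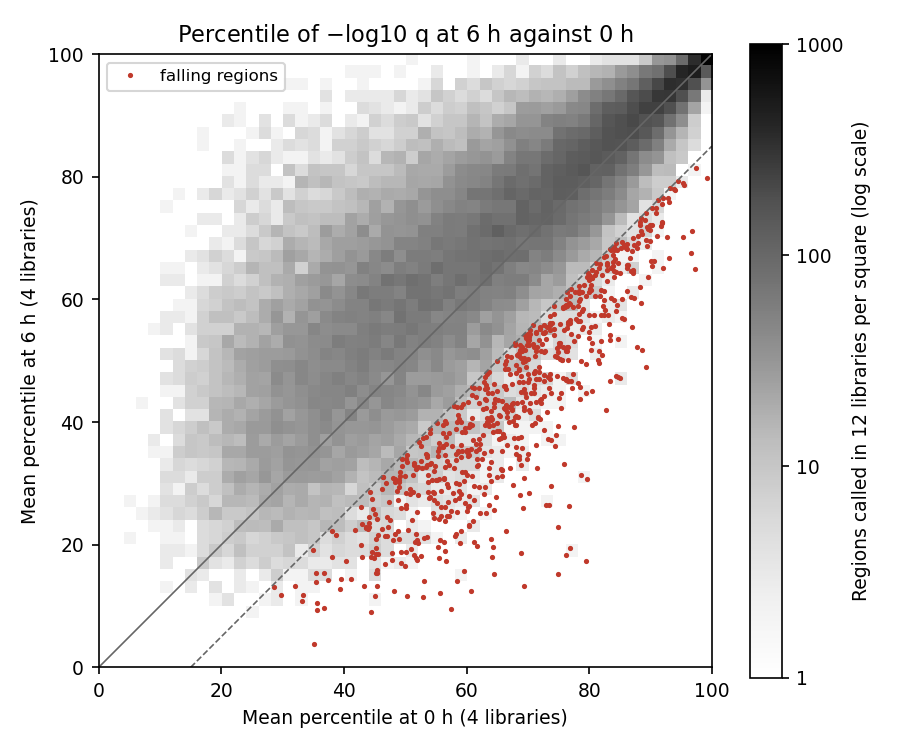
Mean percentile of −log10 q over the 4 libraries at 6 h (vertical axis) against the mean over the 4 libraries at 0 h (horizontal axis). Grey squares count the 41745 regions called in all 12 libraries on a log scale, red points are the 749 falling regions, the solid line marks equality and the dashed line a fall of 15 points. The red points lie along the lower edge of the cloud with no gap between them and the rest.

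Regions could fall from most starting levels. Of the shared regions with a mean 0 h percentile over 60 and up to 80, 3.11% fell by the rule, against 2.00% of those between 40 and 60, 1.26% of those over 80 and 0.289% of those between 20 and 40. No region with a 0 h mean of 20 or less met it, and a region starting that low has little room to fall by 15 points. The median chained width of the falling regions was 682 bp, against 775 bp for the shared regions at large. A chained width includes the 6 h peaks, and the peaks at 0 h alone differed less, with medians of 529.75 bp and 543 bp. By starting level, the 0 h peaks of falling regions measured 381 bp, 445.75 bp, 529.75 bp and 619.75 bp in the bands of 20 to 40, 40 to 60, 60 to 80 and over 80. Those of all regions measured 360.25 bp, 444.75 bp, 571.375 bp and 757.25 bp in the same bands, so the falling regions were narrower before LPS only in the upper 2 bands. A single peak in every library made up 667 of the falling regions (89.1%), against 84.2% of all shared regions. The mean summit position at 6 h lay a median of 25.75 bp from that at 0 h in falling regions, and 23.5 bp in all shared regions.

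The largest fall was that of chr2:164266566-164267173, by 62.1 points. Its percentiles were 86.2 and 63.8 in KO and 86.6 and 81.4 in WT at 0 h, 77.2 and 75.1 in KO and 83.6 and 71.7 in WT at 2 h, and 7.26 and 5.34 in KO and 37.0 and 20.0 in WT at 6 h. All 4 libraries at 6 h thus stood far below the lowest 0 h value, and the 2 h libraries lay inside the 0 h range. Reads at its summit numbered 47 and 36 in KO and 50 and 43 in WT at 6 h, against 92 and 55 in KO and 107 and 96 in WT at 0 h. Divided by each library's median over the shared regions, its summit at 6 h was 0.393 of its 0 h level and its local background 0.863 of it. The summit thus fell further than the local background.

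A tighter set of values belonged to chr1:129910368-129910985, with a fall of 59.6 points. It had 70.6 and 69.2 in KO and 74.5 and 85.4 in WT at 0 h, 79.8 and 70.9 in KO and 77.0 and 75.1 in WT at 2 h, and 10.5 and 16.0 in KO and 22.3 and 12.3 in WT at 6 h. The 0 h and 2 h values overlapped and the 6 h values were separated from both by more than 40 points. The deepest relative loss of summit reads was at chr10:59824819-59825619, which had 28 and 17 reads in KO and 20 and 20 reads in WT at 6 h, against 50 and 43 reads in KO and 60 and 71 reads in WT at 0 h. On the same relative scale, its 6 h summit was 0.290 of its 0 h summit, the lowest ratio among all 41745 regions.

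The next falls in order were chr14:41746534-41747087 with −57.4 points, chr4:19783048-19783788 with −56.1 points, chr18:89093627-89094309 with −51.9 points and chr8:85610330-85611101 with −50.4 points. Their means at 6 h were 19.4 ± 8.50, 13.3 ± 9.02, 22.9 ± 8.02 and 26.2 ± 5.1955 percentile points, against 76.8 ± 2.81, 69.4 ± 10.4, 74.9 ± 3.90 and 76.7 ± 5.2015 at 0 h (SD, n = 4 each). Of these, the region on chromosome 18 was already lower at 2 h, with 57.8 and 64.6 in KO and 66.1 and 59.1 in WT, all below its lowest 0 h value of 71.1. In the other 3 regions, 2 h values overlapped those at 0 h.

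The 6 h values were spread widest at 2 of the 10 largest falls. At chr13:45550655-45551500, which fell by 50.2 points, the 6 h percentiles were 58.1 and 12.6 in KO and 0.721 and 3.35 in WT, against 69.4 and 69.1 in KO and 77.8 and 59.3 in WT at 0 h. The first KO library at 6 h, the one with the longest list, thus came within 2 points of the lowest 0 h value. It was also the high one at chr11:119213327-119213876, with 55.9 beside 9.54 in KO and 21.5 and 36.2 in WT at 6 h, against 77.2 and 81.7 in KO and 79.98 and 80.02 in WT at 0 h.

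**Figure D3:**
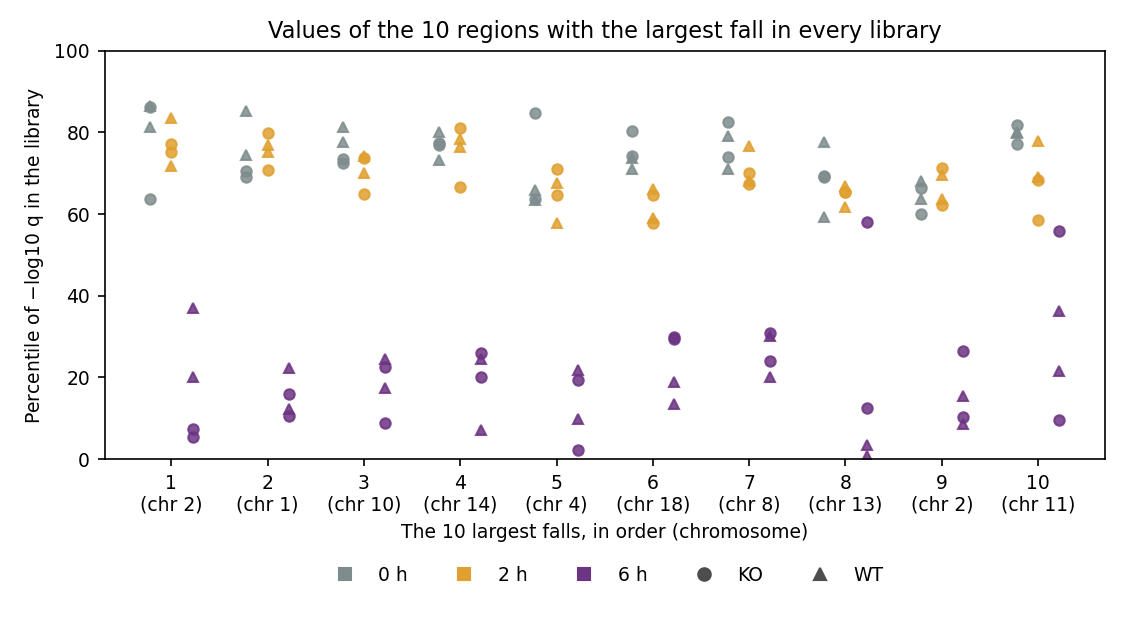
Percentile of −log10 q (vertical axis) in each of the 12 libraries for the 10 regions with the largest mean fall, numbered in order with their chromosome. Grey marks 0 h, orange 2 h and purple 6 h, and circles are KO libraries and triangles WT libraries. The purple marks lie below all grey marks in each column, as the rule required, while orange marks overlap grey ones in 9 of the 10 columns.

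Recovered reads put a size on the falls that does not pass through ranks. They come from the same peaks as the percentiles and so describe the chosen contrast without testing it. The WT libraries at 6 h and 0 h had similar depth by their lowest backgrounds, 2.67 and 2.18 reads against 2.35 and 2.51 reads. In WT the median falling region had 31 reads at its summit at 6 h, against 53 reads at 0 h, and the median of the ratios was 60.6%, against 104% over all shared regions. Both WT libraries at 6 h lay below both at 0 h in 730 of the 749 regions, where 21.2% of all shared regions did. In KO, where the second library at 0 h was the shallowest of the 12, the ratio was 89.7% in falling regions and 148% in all. Set against the ratio of all regions, the falling regions kept 60.4% in KO and 58.0% in WT. Their peaks also narrowed, to a median mean width of 434.5 bp at 6 h, against 529.75 bp at 0 h, while those of all shared regions widened, to 606 bp against 543 bp.

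Summit reads and local background were then each divided by the library's median over the 41745 shared regions. The relative summit at 6 h was a median of 0.556 of that at 0 h in falling regions (quartiles 0.505 and 0.618), against 0.944 in all. It was lower in all 4 libraries at 6 h than in all 4 at 0 h in 737 of the 749 falling regions, against 18.4% of the shared regions. The relative background also fell, to a median of 0.799 of its 0 h level, against 0.951 in all. Background was lower without overlap in 462 falling regions (all shared regions, 21.6%) and higher without overlap in 36 (all shared regions, 14.4%). In the same 462 regions (61.7%) both the summit and its local background were lower, against 11.3% of the shared regions. The local background may include reads of the peak itself, since its window is not stated in the sources used here.

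In a small group the background rose instead. A relative background at least 1.2 times its 0 h level, a limit set after the values were seen, was found in 27 falling regions (3.60%), against 13.3% of the shared regions. Of the 27, 16 (59.3%) had a gained region within 5 kb, against 57 of the other 722 (7.89%) and 5.35% of all shared regions. A gained region had a peak in every 6 h library and in 0 of 4 at 0 h. The same share among all shared regions with a background this high is not given here. The window of the local background may also hold reads of the gained region. Background and gained neighbour may therefore not be separate observations. One of the 10 largest falls, chr2:102600280-102601100, is among the 27. Its percentiles were 26.4 and 10.3 in KO and 8.53 and 15.5 in WT at 6 h, against 66.5 and 60.02 in KO and 68.0 and 63.7 in WT at 0 h. Yet it had 46 and 32 reads in KO and 31 and 32 reads in WT at 6 h, against 37 and 30 reads in KO and 43 and 42 reads in WT at 0 h. Raw reads were fewer only in WT, but the KO libraries at 6 h were deeper than those at 0 h, and on the relative scale the summit over all 8 libraries was 0.707 of its 0 h level. Its relative background was 2.26 times its 0 h level. A gained region at chr2:102597226-102597884, 3135 bp away, reached a percentile of 82.1 ± 1.81 at 6 h (SD, n = 4).

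The relative summit did not fall at all in 2 regions, which lie on chromosome 14 about 6 kb apart. The region chr14:103457135-103459255 was both the widest of the 749, at 2121 bp, and the highest at 0 h. Its percentiles were 98.9 and 99.8 in KO and 98.6 and 99.8 in WT at 0 h, 98.8 and 99.6 in KO and 99.5 and 99.1 in WT at 2 h, and 73.9 and 78.5 in KO and 88.5 and 78.6 in WT at 6 h. The reads at its summit went the other way, with 121 and 118 in KO and 126 and 149 in WT at 0 h, 164 and 181 in KO and 173 and 159 in WT at 2 h, and 194 and 153 in KO and 177 and 160 in WT at 6 h. The local background was 8.74 ± 0.829 reads at 0 h, 14.6 ± 1.24 reads at 2 h and 49.955 ± 10.4 reads at 6 h (SD, n = 4 each). Its peak was also wider, at 1924 ± 206 bp at 6 h, against 1142 ± 51.4 bp at 0 h (SD, n = 4 each). This region ranked lower at 6 h with more reads at its summit than at 0 h.

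Its neighbour chr14:103450517-103451039 had 129 and 93 reads in KO and 101 and 90 reads in WT at 6 h, against 70 and 43 reads in KO and 67 and 63 reads in WT at 0 h. Its percentile was nonetheless lower, at 40.8 ± 8.35 at 6 h and 71.6 ± 8.57 at 0 h (SD, n = 4 each), and its background was 43.0 ± 7.15 reads at 6 h and 8.04 ± 0.978 reads at 0 h. Within 20 kb of the wide region, 10 regions were called in at least 1 library, of which 0 were gained by the call rule and 1 rose by the mirrored rule. That one, chr14:103445847-103447057, had a mean percentile of 80.2 at 6 h, against 35.3 at 0 h. Among regions with 0 calls at 0 h, chr14:103456034-103456485 had a peak in 3 of 4 libraries at 6 h. Likewise, chr14:103456605-103456942 had a peak in 2 of 4 at 6 h and chr14:103464912-103465133 in 1 of 4. In the other direction, chr14:103478497-103478799 had a peak in 1 library at 0 h and in 0 at 6 h.

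**Figure D4:**
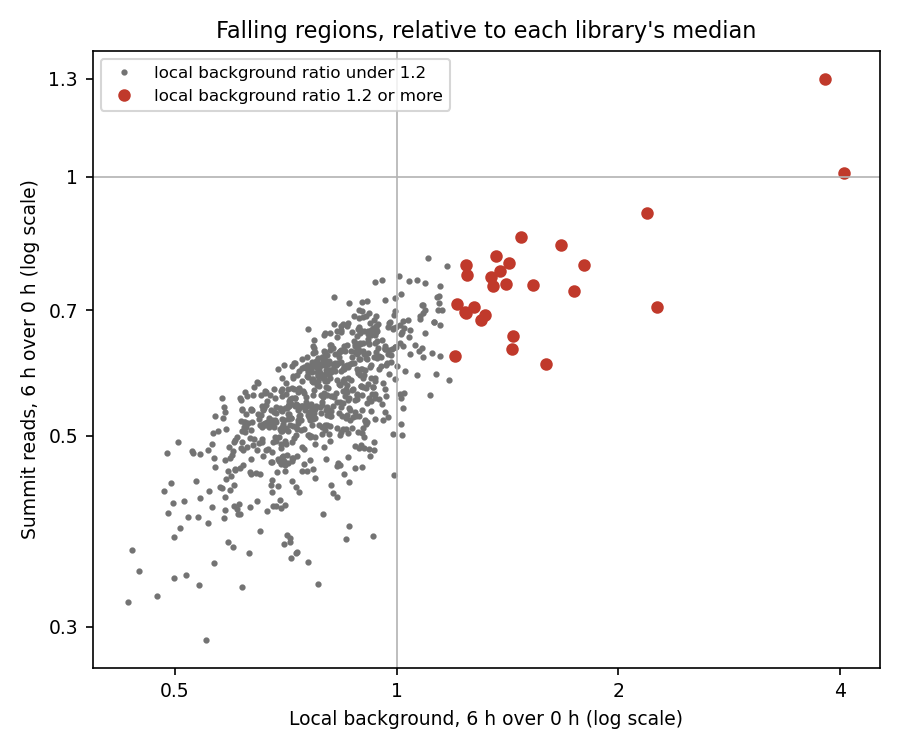
Ratio of 6 h to 0 h for the reads at the summit (vertical axis, log scale) and for the local background (horizontal axis, log scale) of the 749 falling regions, each divided by the library's median over the 41745 shared regions. Red circles are the 27 regions whose background ratio is 1.2 or more, and grey points are the other 722. Summit ratios are below 1 in all but 2 regions, which lie at background ratios of 3.81 and 4.05.

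The intermediate time was placed on the same scale. The share of the fall present at 2 h was 0% for a region still at its 0 h mean and 100% for a region already at its 6 h mean. Its median over the 749 regions was 3.19% (quartiles −10.6 and 17.2), and read in each 2 h library alone it was 4.75% and −0.0373% in KO and −5.30% and 8.51% in WT. More than 50% of the fall came after 2 h in 716 regions, and 620 had 25% of it or less at 2 h. Because 0 h and 6 h values chose the regions, no test was made of 2 h against either.

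In 539 regions the 2 h values overlapped those at 0 h and lay above every 6 h value. A further 157 overlapped both times, 25 were below every 0 h value and overlapped 6 h, and 11 were stepwise, below every 0 h value and above every 6 h value. The remaining 17 were above every 0 h value at 2 h. Thus 36 of the falling regions (4.81%) were below 0 h without overlap at 2 h, where 0.575% of the shared regions were, and 567 (75.7%) were above 6 h, where 8.09% were. The 17 above 0 h were 2.27% of the falling regions, against 9.61% of the shared regions. The rule itself asks for 0 h values above 6 h values, which tilts each of these comparisons in advance. No conclusion is drawn from them. The rising regions had a median share of 41.5% at 2 h, and 25.6% of them were above every 0 h value by then. That share and the 3.19% of the falling regions both come from ranks over whole lists. In those ranks the median change from 0 h over all shared regions was +3.46 points at 2 h and +3.96 points at 6 h. The share of the rising regions in equal-length ranks is not given here.

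The timing depended on the ranking. In equal-length ranks the mean position of the falling regions had medians of 53.0, 43.7 and 12.8 at 0, 2 and 6 h, and the median share of the fall at 2 h was 21.3%. Reads at the summit, as a percentage of the median over shared regions, ran from 106% to 109% in the 0 h libraries, 93.1% to 97.0% in the 2 h libraries and 55.6% to 60% in the 6 h libraries. By these measures a smaller part of the fall was present at 2 h and the larger part came after it. Both measures start from the 0 h libraries, whose values chose the regions. How much of the drop at 2 h comes from that choice was not tested.

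**Figure D5:**
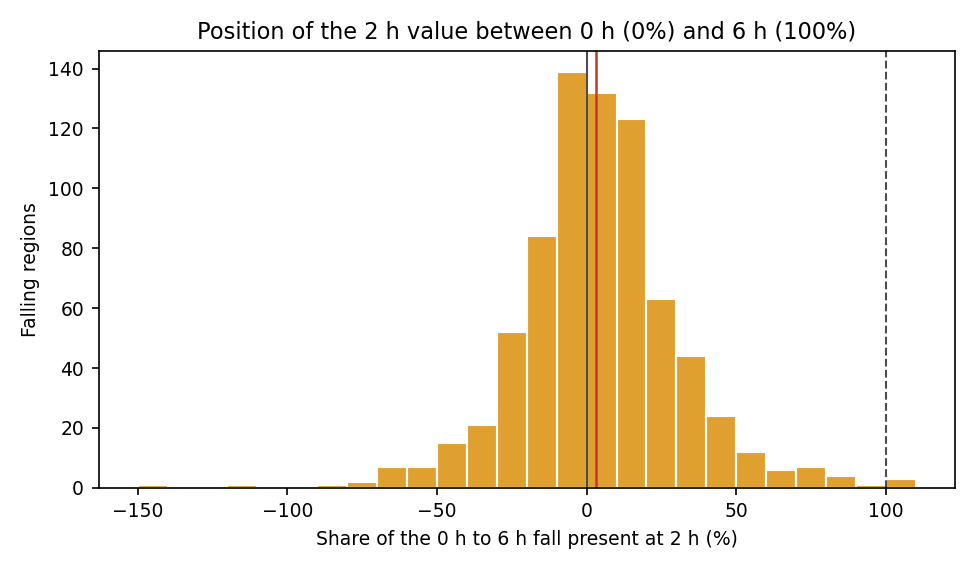
Number of falling regions (vertical axis) by the share of their fall present at 2 h, in percent (horizontal axis), where 0 is the mean at 0 h (solid line) and 100 the mean at 6 h (dashed line). The red line marks the median of 3.19%. Most regions gather around 0, and few come near 100.

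Extremes on this scale show how different the courses could be. The lowest share was that of chr17:35160611-35161159, at −147%, with 28.2 and 24.2 in KO and 32.1 and 29.8 in WT at 0 h, 38.6 and 59.8 in KO and 57.6 and 49.0 in WT at 2 h, and 14.2 and 15.8 in KO and 7.38 and 15.1 in WT at 6 h. Every 2 h library there was above every 0 h library before the 6 h values dropped below both. The same shape was seen at chr9:120042156-120043071, where 2 h percentiles of 71.6 and 82.6 in KO and 76.3 and 75.5 in WT lay above 0 h values of 51.9 to 63.8 and 6 h values of 37.5 to 46.2. The reads at its summit also peaked at 2 h, with 34 and 24 in KO and 35 and 41 in WT at 0 h, 56 and 70 in KO and 65 and 60 in WT at 2 h, and 33 and 23 in KO and 28 and 25 in WT at 6 h. Its rank and its reads were thus both highest at 2 h.

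At the other end, chr7:25242599-25243137 had a share of 106%. Its percentiles were 54.3 and 56.1 in KO and 55.4 and 60.6 in WT at 0 h, 43.7 and 40.3 in KO and 47.2 and 14.7 in WT at 2 h, and 36.7 and 48.4 in KO and 40.6 and 24.7 in WT at 6 h. The fall was thus present at 2 h in all 4 libraries, with the second WT library lowest. Among the regions that started highest, chr6:124325226-124326011 kept its level at 2 h and then dropped, with 97.2 and 97.9 in KO and 98.7 and 95.3 in WT at 0 h, 96.7 and 96.3 in KO and 96.3 and 96.9 in WT at 2 h, and 69.1 and 63.7 in KO and 66.3 and 60.9 in WT at 6 h. Its summit held 73 and 52 reads in KO and 59 and 53 reads in WT at 6 h, against 119 and 108 reads in KO and 148 and 131 reads in WT at 0 h.

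Falling regions were found on all 19 autosomes, from 1.17% of the shared regions on chromosome 16 to 2.49% on chromosome 19. Another falling region lay within 50 kb of 105 of them (14.02%), against 8.26% of the shared regions, and within 100 kb of 22.3%, against 14.1%. These shares have no test, and the falling regions also lay closer to the next shared region of any kind, at a median of 6430 bp against 8473 bp. Joining neighbours at most 50 kb apart left 644 regions alone, 42 pairs and 7 groups of 3. On chromosome 6, 3 of 4 shared regions within 30.7 kb fell: chr6:38923763-38924389 by 34.5 points, chr6:38931950-38933044 by 19.0 points and chr6:38953768-38954495 by 25.9 points. On chromosome 1, 3 of 5 shared regions within 35.6 kb fell, with means of 30.5 ± 16.3, 27.3 ± 15.9 and 26.3 ± 6.61 at 6 h, against 55.1 ± 6.04, 61.2 ± 5.06 and 60.3 ± 8.86 at 0 h (SD, n = 4 each). These lie between positions 84179324 and 84214896.

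Falling regions also had neighbours that changed in the other direction, with an excess over the shared regions mainly at short range. A gained region lay within 5 kb of 73 falling regions (9.75%), against 5.35% of the shared regions, and a rising region within 5 kb of 60 (8.01%), against 4.61%. At 50 kb, 39.3% of the falling regions had a gained neighbour, against 39.0% of the shared regions. A rising neighbour lay within 50 kb of 41.1%, against 41.5%. These shares have no test, and the closer spacing of falling regions given above applies to them too. The strongest gained neighbour, chr12:25828202-25828850, reached a percentile of 90.4 ± 3.23 at 6 h and stood 1241 bp from chr12:25826970-25827599, which had 41.9 ± 10.1 at 6 h and 70.2 ± 5.40 at 0 h (SD, n = 4 each). Lost regions, with a peak in every 0 h library and in 0 of 4 at 6 h, lay within 50 kb of 23 falling regions (3.07%), against 1.58% of the shared regions. Within 5 kb, a lost region lay near 1 falling region (0.134%), against 0.218% of the shared regions.

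The comparison of genotypes asks whether the loss of lincRNA-EPS goes with another level of these regions. The percentiles at 0 h and 6 h chose the regions, and the rule limits how far KO and WT libraries can lie apart at those times, so a planned contrast over all 3 times is left out and only the contrast at 2 h was read as a test. A limma model over all 41745 regions, fitted to the percentiles with a mean for each of the 6 groups, called 0 of the 749 falling regions different between KO and WT at 2 h (0% of all regions in either direction), at a Benjamini-Hochberg adjusted p of 0.05. The lowest adjusted limma p among the falling regions was 0.9999. An unadjusted limma p below 0.05 was reached by 26 of them (3.47%), against 3.48% of all regions.

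The median difference of KO from WT at 2 h was −0.84 points with a median SE of 6.87 points. Both KO libraries lay above both WT libraries at 2 h in 108 falling regions (14.4%, against 16.5% of all) and below in 127 (17.0%, against 17.6% of all). In simulated data with 100 regions shifted by 15 points and 100 by 30 points, the contrast at 2 h recovered 10% and 32% of them, with 2 false calls. Differences of such sizes could therefore have been missed in many regions.

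Regions were also chosen by the rule in the libraries of either genotype alone and read in those of the other. The lists chosen in this way differ from the 749, whose fall is therefore not tested by them. Peak lists were longer at 6 h than at 0 h in both genotypes, so differences shared by libraries of the same time are not removed. The counts of regions are given as a description. This comparison was added after the data were seen. The rule applied to the WT libraries alone chose 2448 regions, of which 683 are among the 749. In the KO libraries, which had no part in that choice beyond the call in all 12, 957 of them (39.1%) had both 6 h values below both 0 h values, where 9.83% of all regions did. Their median change in KO was −7.38 points, against +5.76 over all regions. A limma fit on the 6 KO libraries alone called 66 of them lower at 6 h (2.70%, against 0.199% of all regions) and 9 higher at an adjusted p of 0.05. Over all 41745 regions, the same KO fit called 83 lower and 1681 higher.

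In the other direction, the KO libraries alone chose 1142 regions, of which 579 are among the 749. In WT, 775 of them (67.9%) had both 6 h values below both 0 h values, against 17.7% of all regions, and their median change was −16.7 points, against +2.36. The limma fit on the 6 WT libraries called 149 of them lower at 6 h (13.05%, against 0.891% of all regions) and 0 higher. Over all 41745 regions, the same WT fit called 372 lower and 1361 higher. The regions that met the rule in KO alone and in WT alone numbered 601. These limma calls rest on few libraries. With the replicate number as a block, the 66 calls in KO and the 149 in WT both became 0. With any of the 6 WT libraries left out, 0 of the 149 calls remained, and without any of 5 of the 6 KO libraries 0 of the 66 remained, while without the first KO library at 0 h the count was 58.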

How the data were processed

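ATAC-seq peak lists of 12 libraries were used, 1 per library. The submitters' processing notes name the mm9 build and the tools MACS2, Picard and Bowtie2 (version 2.1.0). Nothing on MACS2 settings, duplicate reads or a Tn5 offset correction is given in the sources used here. The authors' deposited values for each peak are a score, which is 10 times the −log10 q-value, the −log10 p-value, and the fold ratio of the summit to its local background. These were ranked within a list only. Whole reads at the summit and the local background were recovered from the deposited fold and −log10 p, by a Poisson tail with 1 added to both terms of the fold. All peaks (100%) matched within 0.001 on the log10 scale. Reads without molecular identifiers are not independent molecules.

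Groups follow the labels. limma 3.58.1 in R 4.3.3 was fitted to percentiles over all 41745 regions with Benjamini-Hochberg adjustment, and tested on simulated data. Tables were made with Python 3.11.15 and pandas 2.3.3. The members and lists were chosen with earlier results of these data known. Regions were named by size and timing: the 10 largest falls, 3 on each side of the limit, the 3 highest and lowest shares at 2 h, and the 3 widest and highest at 0 h, of which those with the clearest values are described. Regions shown for their background, cluster or neighbours were chosen after their values were seen. Genes, motifs and promoters were not analysed here, since no mm9 genome or annotation was used.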

Additional observations from a re-analysis of the deposited data

How the results depend on the processing

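The number of falling regions was 749, and 3536 with ranks over the shared regions, 1325 with the fold ranked, 492 with a fall of at least 20 points, 2448 in WT alone and 1142 in KO alone. Ranking −log10 p, a 10-point limit, single-peak regions, regions up to 2 kb and peaks with −log10 q of 3 or more left it within 1.5 times. Leaving out 1 library gave 749 to 1322, with 1322 without the second KO library at 0 h, the shortest list, and 1138 without the first KO library at 6 h, the longest. The shared regions numbered 41831 to 44882 without 1 library. The median share of the fall at 2 h was 3.19%, 21.3% in ranks over the shared regions, and 1.07% to 6.73% without 1 library. The median width was 682 bp, and 510 bp as the mean width of the highest peak. KO against WT at 2 h called 0 falling regions under each of 5 other fits, the replicate block among them, and without each library. Same-numbered libraries deviated with correlations of −0.0164 to 0.0668, so the numbers were not taken to pair the samples.

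Regions chosen in WT and called lower in KO numbered 66, 0 with the replicate block, 389 with ranks over the shared regions, 235 with log2 fold and 0 to 58 without 1 library. Those chosen in KO and called lower in WT numbered 149, 0 with the replicate block, 330 with ranks over the shared regions, 212 with log2 fold and 0 to 0 without 1 library. The causes of these differences were not tested. In WT alone, in KO alone and without 1 library, fewer libraries entered the rule. The summit count of 737 was 701 when scaled by lowest background and 737 to 741 without 1 library. For the 27 named regions, 297 values were recomputed, of which 26 moved by more than the spread between libraries and 0 changed sign. The share of promoters or motifs was not run for want of an mm9 annotation.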
